A study of Chlorocebus aethiops vervet with 14 samples.

Results

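Cadherins, protocadherins, contactins and contactin-associated proteins are cell surface adhesion molecules, and their genes were followed here in the lateral geniculate nucleus of vervet monkeys. The members were the named genes of the rhesus array whose symbol put them in one of these families, each read on its brightest probe set, which gave 49 genes on 85 probe sets out of 14132 named genes. RNA came from normal, untreated adult male Cercopithecus aethiops, with 3 individual animals in each of 4 groups. M neurons and P neurons are captured neuronal cell bodies of the magnocellular and the parvocellular part of the nucleus, and M layers and P layers are captures of the entire layers. Each sample pooled roughly 3000 laser pulses on cresyl violet stained tissue, and its RNA went through a pair of amplification rounds before hybridization. Values are signals on a linear scale, and differences are on the log2(signal + 16) scale with standard errors (SE) from limma. A gene is called at a Benjamini-Hochberg adjusted p under 0.05 over all 26383 probe sets tested.

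Cadherins bind to the same or a related cadherin on a neighbouring cell, need calcium to do so, and are tied to the actin cytoskeleton inside the cell by catenins. Type II cadherins and non-clustered protocadherins mark particular brain nuclei and layers, while clustered protocadherins give neurons diverse surface identities. Contactins are immunoglobulin-like proteins held in the membrane by a lipid anchor, and contactin-associated proteins (Caspr proteins) are their partners at the node of Ranvier and at synapses. The magnocellular layers of the nucleus hold large relay cells and the parvocellular layers smaller ones, each passing retinal signals to the visual cortex.

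Vervet RNA was read on rhesus probes, so the level of one probe set cannot be set against that of another, and only the differences of a probe set between groups were tested. The median signal of the 12 rhesus arrays lay between 11.95 and 14.82 and the trimmed mean between 60.1 and 90.7, and log2 signals of any 2 arrays correlated across probe sets at 0.956 to 0.978. Neuron markers were bright in every group, with sums of 4 genes at 21590 to 23420 in M neurons, 18920 to 21660 in P neurons, 18010 to 21280 in M layers and 16710 to 19330 in P layers. Astrocyte markers were present in the captures of cell bodies too, at 1776 to 3114 in M neurons and 2038 to 2075 in P neurons, against 4502 to 5069 in M layers and 3079 to 3824 in P layers. In captures of this kind fewer cells of a type and less RNA per cell cannot be told apart.

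Of the 49 members, 36 had a mean signal that passed the filter on dim probe sets and were tested. The 13 below it were CDH1, CDH3, CDH4, CDH9, CDH17, CDH19, CDH20, CNTNAP1, CNTNAP5, PCDH15, PCDHB1, PCDHB8 and PCDHB16. CNTNAP1, the Caspr of the paranode, read between 0.696 and 2.99 on the rhesus arrays, and CDH1, the epithelial E-cadherin, between 0.472 and 4.40. A dim rhesus probe set does not show that a gene was absent. CNTNAP1 read 172 and 93.9 on 2 human arrays given vervet RNA. PCDHB8 reached the highest signal of the 13, with 5.36, 28.5 and 37.5 in P neurons and between 3.72 and 13.6 in the other groups. CDH2, CDH6, CDH24, PCDH1, PCDH9, PCDH11Y, PCDH17, PCDH19, CNTN2, CNTNAP3 and CNTNAP3B belong to the same families and were not analysed here on the rhesus array. CDH15 and PCDH12 passed the filter by the smallest margins, with mean log2 values of 4.82 for both against a threshold of 4.81, and CDH3 at 4.73 stood nearest below it.

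PCDH20 and CNTNAP4 had the largest differences between M and P of all tested members, and they were singled out with that difference known, so their values are given as a description. Both were lower in M than in P, in cell bodies and in whole layers. No other member was called between M and P.

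PCDH20, a non-clustered protocadherin, was read by 1 probe set, MmuSTS.2010.1.S1_at. Its signal was 8.37, 8.46 and 10.7 in M neurons, against 157, 117 and 283 in P neurons. In whole layers it was 41.5, 36.6 and 25.6 in M layers, against 110, 113 and 165 in P layers. M neurons stood lowest on every array, under the median signal of all 12 arrays, M layers came next with no overlap, and both P groups stood above them and overlapped each other. Its mean was 9.18 ± 1.33 (SD, n = 3) in M neurons, against 186 ± 86.6 in P neurons. In layers the mean was 34.6 ± 8.15 in M layers, against 129 ± 31.2 in P layers.

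The difference between M and P for PCDH20 was -2.92 ± 0.25 in neurons (adjusted p = 2.45e-06) and -1.51 ± 0.25 in layers (adjusted p = 0.00994). The neuron difference minus the layer difference was -1.40 ± 0.35, which was not called (adjusted p = 1), although its p before adjustment was under 0.05. No fold is given, since the M neuron signals were under the array medians and the size of the neuron difference moved with the pseudocount, to -4.11 with 1 and -1.72 with 64. The call in layers was lost without M layer 3 (-1.38, adjusted p = 0.0658) and without P layer 3 (-1.34, adjusted p = 0.114).

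CNTNAP4, known as Caspr4 and in mouse studied for its part in GABA release from interneurons, was read most brightly by MmugDNA.2777.1.S1_at. Its signal was 682, 697 and 775 in M neurons, against 1869.5, 1807 and 1370.3 in P neurons. In whole layers it was 598, 867 and 484 in M layers, against 1314, 1619.7 and 1086 in P layers. All M arrays lay below all P arrays, while M neurons overlapped M layers and P neurons overlapped P layers. The order of the group means was P neurons, P layers, M neurons and M layers, and only the step from P layers to M neurons had no overlap between arrays.

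The difference between M and P for CNTNAP4 was -1.20 ± 0.20 in neurons (2.30-fold, adjusted p = 0.00716) and -1.05 ± 0.20 in layers (2.07-fold, adjusted p = 0.0321). The neuron difference minus the layer difference was -0.15 ± 0.28 and was not called (adjusted p = 1). Leaving out P neuron 2 ended the call in neurons (-1.14, adjusted p = 0.0637). The call in layers ended without M layer 1 (-1.01, adjusted p = 0.114), M layer 3 (-0.86, 0.173), P layer 1 (-1.05, 0.145), P layer 2 (-0.90, 0.205) or P layer 3 (-1.19, 0.0631).

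CNTNAP4 had 5 probe sets, of which 2 were tested, and the second did not show the difference. MmugDNA.12458.1.S1_at read 53.1, 43.7 and 41.0 in M neurons, against 54.3, 62.6 and 46.6 in P neurons. In layers it read 32.1, 28.4 and 47.6 in M layers, against 33.7, 50.3 and 28.1 in P layers. Its arrays overlapped in both captures, and its M against P difference was -0.19 ± 0.21 in neurons (adjusted p = 0.921) and -0.03 ± 0.21 in layers (adjusted p = 1). With the mean over both tested probe sets CNTNAP4 was not called in neurons (-0.69, adjusted p = 0.137) or in layers (-0.54, adjusted p = 0.526). The other 3 probe sets stayed dim, with no array of theirs above 24.7.

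**Figure D1:**
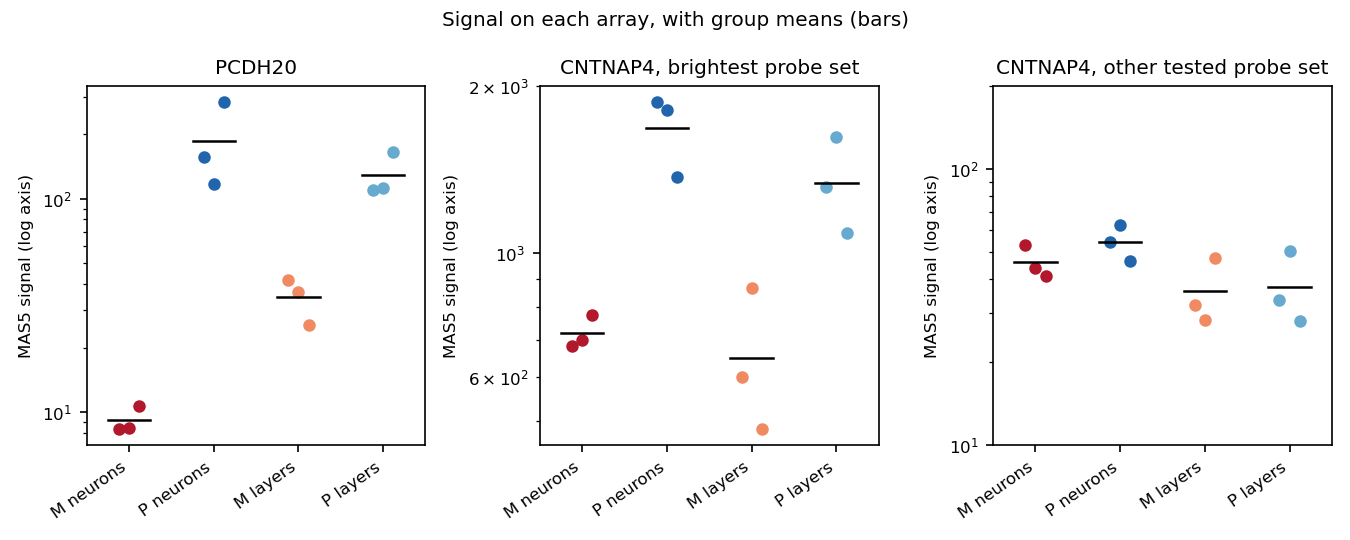
Signal on each array (points, log axis) and arithmetic group mean (bars) in M neurons, P neurons, M layers and P layers, for PCDH20, the brightest probe set of CNTNAP4 and its other tested probe set. M arrays lie below P arrays in the first panel and the second, and the groups overlap in the third.

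The arrays had been run on 3 fluidics stations that did not spread evenly over the groups. Station 3 held all M neurons with P neuron 1, station 4 held P neurons 2 and 3 with M layers 1 and 2, and station 5 held M layer 3 with all P layers. Within station 3 the neuron difference was -2.78 for PCDH20 (adjusted p = 1.28e-06) and -1.36 for CNTNAP4 (adjusted p = 0.06). Within station 5 the layer difference was -1.78 for PCDH20 (adjusted p = 0.0104) and -1.42 for CNTNAP4 (adjusted p = 0.0372), each with a single array on one side whose spread was taken from the others. A station block over all arrays gave these same differences, since only station 3 held both neuron groups and only station 5 both layer groups. The block is therefore no separate check. Its differences rest on P neuron 1 as the sole P array in neurons and on M layer 3 as the sole M array in layers. With the block PCDH20 was called in neurons (-2.78 ± 0.36, adjusted p = 0.00101) but not in layers (-1.78 ± 0.36, adjusted p = 0.118). CNTNAP4 was not called with the block in neurons (-1.36 ± 0.27, adjusted p = 0.125) or in layers (-1.42 ± 0.27, adjusted p = 0.0751).

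Of the markers of other cell types 0 were called between M and P in neurons and 0 in layers. Over both captures the astrocyte gene GFAP was higher in M (0.81 ± 0.15, adjusted p = 0.0101), the 1 of 4 astrocyte markers called. Of the oligodendrocyte, microglial, endothelial and interneuron markers 0 were called. Of the 4 neuron markers 1, NEFH, was called higher in M over both captures (0.34 ± 0.07, adjusted p = 0.023). The sum of the interneuron markers GAD1 and GAD2, nearly all of it GAD1, ran from 321 to 918 in M neurons, against 379 to 568 in P neurons, and from 815 to 1140 in M layers, against 477 to 577 in P layers. In layers GAD1 differed by 0.96 ± 0.29 (adjusted p = 0.435) and GAD2 by -0.05 ± 0.23 (adjusted p = 1). The part of these cells in the differences of PCDH20 and CNTNAP4 was not tested.

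Set against their families, PCDH20 and CNTNAP4 were the 2 of 36 tested members called lower in M neurons, and 0 were called higher. Of all named genes tested, 0.329% were called in that comparison, 0.13% higher and 0.199% lower. In layers the same 2 of 36 members were called lower and 0 higher, where 0.14% of named genes were called, 0.0698% higher and 0.0698% lower. Over both captures these 2 were again called lower and 0 higher, where 1.05% of named genes were called, 0.548% higher and 0.499% lower. Since the pair was chosen for this difference, nothing follows from these counts. The median difference of all members was 0.00 in neurons and 0.05 in layers, against 0.02 and 0.06 over all named genes.

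The other 34 members showed no called difference between M and P. Their differences lay between -0.48 and 0.61 in neurons, where the lowest adjusted p was 0.53. In layers they lay between -0.73 and 0.49, with a lowest adjusted p of 0.782. Before adjustment 5 of all 36 members had a p under 0.05 in neurons, where 7.81% of named genes did, and 4 in layers, where 6.09% did, PCDH20 and CNTNAP4 among them each time. Over both captures it was 7 of 36, where 11.1% of named genes did. Standard errors lay between 0.17 and 0.33 in neurons and in layers.

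Among the type II cadherins, which direct the sorting and wiring of neurons, 8 of 11 members were tested and 0 were called between M and P. CDH7 had the smallest p of them in neurons. Its signal was 85.6, 84.0 and 105 in M neurons, against 136, 137 and 129 in P neurons. The groups did not overlap, and the difference of -0.48 ± 0.19 was not called (adjusted p = 0.53). In layers CDH7 was 71.8, 70.9 and 106 in M, against 112, 101 and 84.9 in P, and the arrays overlapped.

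CDH22 was the type II cadherin with the smallest p in layers. It read 65.0, 26.8 and 10.7 in M layers, against 58.0, 71.7 and 49.4 in P layers. The M layer arrays spread widely and 1 of them lay among the P layers, and the difference was -0.73 ± 0.30 (adjusted p = 0.782). Within station 5, where M layer 3 was the sole M array, it was -1.49 (adjusted p = 0.0314). In neurons CDH22 differed by -0.03 ± 0.30.

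CDH11, an adhesion molecule also of mesenchymal cells, had 3 tested probe sets. The brightest was 104, 142 and 139 in M layers, against 148, 175 and 150 in P layers, with no overlap and a difference of -0.27 ± 0.19 (adjusted p = 0.973). A second probe set, MmugDNA.5533.1.S1_at, was 46.0, 47.8 and 58.3 in M neurons, against 65.5, 106 and 97.6 in P neurons. These arrays did not overlap either, and its difference of -0.65 ± 0.20 was not called (adjusted p = 0.28).

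The sole classical type I cadherin tested, CDH15, best known from muscle, was dim. It differed by 0.35 ± 0.25 between M and P neurons (adjusted p = 0.835) and by 0.06 ± 0.25 between the layers. Among the other cadherins 4 of 5 were tested and 0 called. The kidney cadherin CDH16 had the smallest p of them in neurons (0.33 ± 0.28, adjusted p = 0.876) and CDH13, a cadherin held by a lipid anchor and lacking a cytoplasmic tail, in layers (0.36 ± 0.21, adjusted p = 0.917). CDH23, a part of the tip links of hair cells and the brightest of these probe sets, differed by 0.23 ± 0.20 in neurons and 0.16 ± 0.20 in layers.

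Non-clustered protocadherins other than PCDH20 were not called between M and P. PCDH10, a delta-2 protocadherin, was 944, 1022 and 1443 in M neurons, against 1304, 1552 and 1436.5 in P neurons. The groups overlapped and the difference of -0.35 ± 0.27 was not called (adjusted p = 0.848). PCDH18, of the same group, had the smallest p of it in layers at 0.49 ± 0.25 (adjusted p = 0.881). The delta-1 protocadherins PCDH11X, encoded on the X chromosome, and PCDH7 differed by 0.04 ± 0.21 and 0.03 ± 0.33 in neurons, and by 0.04 ± 0.21 and 0.17 ± 0.33 in layers. PCDH12, a protocadherin of endothelium, differed by 0.13 ± 0.25 in neurons and 0.09 ± 0.25 in layers.

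The clustered protocadherins among the members were alpha and beta genes, and none was of the gamma cluster. Of these 12 members 9 were tested and 0 called, with differences between -0.39 and 0.46 in neurons and between -0.23 and 0.35 in layers. PCDHB11 had their smallest p in neurons (-0.39 ± 0.23, adjusted p = 0.76) and PCDHA11 in layers (0.35 ± 0.20, adjusted p = 0.913). PCDHA5, the brightest, differed by 0.07 ± 0.17 in neurons. Alpha protocadherins share their constant exons, so their probe sets may not separate the isoforms.

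All 5 contactins on the array were tested and 0 were called between M and P. CNTN1, the contactin that joins Caspr at the paranode, was 37.3, 56.5 and 40.8 in M neurons, against 20.2, 23.6 and 26.8 in P neurons. Its groups did not overlap, and the difference of 0.61 ± 0.25, the highest of all members, was not called (adjusted p = 0.551). CNTN3 was 72.9, 84.8 and 82.3 in M layers, against 121, 135 and 116 in P layers, with no overlap and a difference of -0.54 ± 0.24 (adjusted p = 0.82). CNTNAP2, the Caspr that clusters potassium channels beside the paranode and the other tested relative of CNTNAP4, differed by -0.13 ± 0.21 in neurons and -0.29 ± 0.21 in layers on its brightest probe set. Its probe sets MmugDNA.40181.1.S1_at and MmugDNA.40181.1.S1_s_at had the opposite sign, at 0.51 ± 0.22 and 0.48 ± 0.21 in neurons and 0.39 ± 0.22 and 0.42 ± 0.21 in layers, with every M layer array above every P layer array, and were not called either (adjusted p between 0.601 and 0.911).

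Counted by overlap of arrays, 1 member, CNTN1, was higher and 3, PCDH20, CNTNAP4 and CDH7, were lower on every M neuron array than on every P neuron array. Among all named genes 6.34% were higher in this way and 5.32% lower. In layers 0 members were higher and 4, PCDH20, CNTNAP4, CDH11 and CNTN3, were lower on every M array, where 9.51% of named genes were higher and 3.38% lower.

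**Figure D2:**
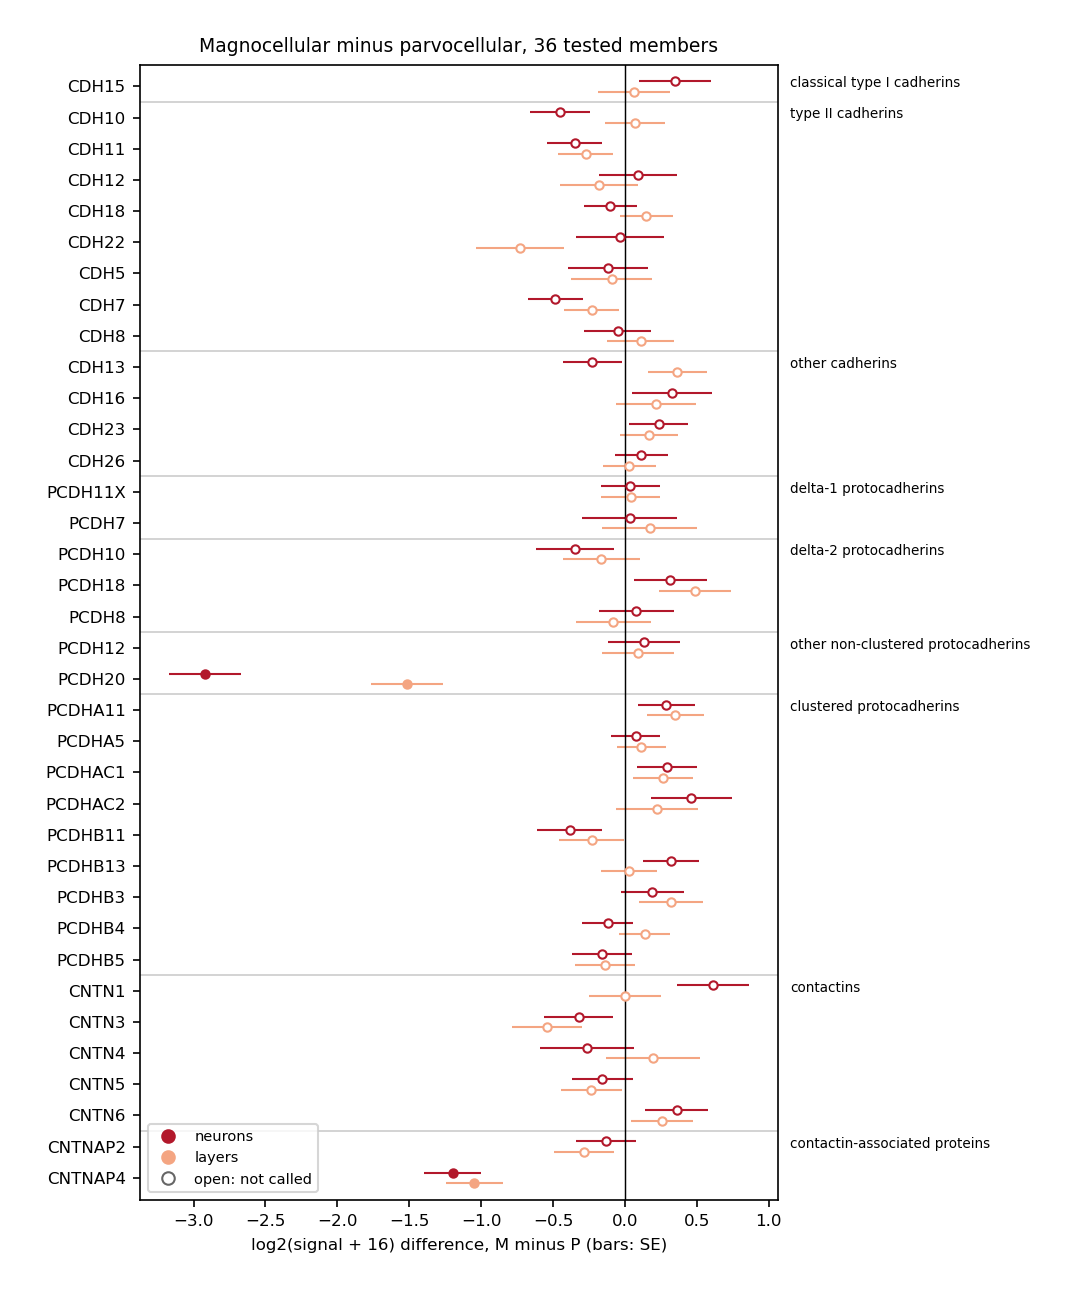
Difference M minus P on the log2(signal + 16) scale with SE for the 36 tested members, grouped by subfamily, in neurons (dark) and layers (light); filled points are called. PCDH20 and CNTNAP4 stand at -2.92 and -1.20 in neurons and -1.51 and -1.05 in layers, and the other 34 members lie between -0.73 and 0.61 with open points.

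Captured neurons were next compared with whole layers, which also hold neuropil, glia and vessels. Over both layer types 9 of 36 members were called. CDH12, CDH18, CNTN1, CNTN6, PCDH11X and PCDHA11 were higher in neurons, and CDH10, CDH13 and PCDH18 were lower. Of all named genes 29.4% were called in this comparison, 24.2% higher and 5.21% lower, and the share of members called was 25%, close to that background. Before adjustment 16 of 36 members had a p under 0.05, where 41.1% of named genes did. Named genes as a whole were shifted up in neurons, with a median difference of 0.17 against 0.22 for the members, and trimmed mean signals were 69.6 to 90.7 on neuron arrays, against 60.1 to 74.3 on layer arrays. Differences are therefore best read against that shift.

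Of the 5 contactins 2, CNTN1 and CNTN6, were called over both layer types. CNTN1 was 37.3, 56.5 and 40.8 in M neurons, against 4.84, 13.3 and 10.5 in M layers. In P it was 20.2, 23.6 and 26.8 in neurons, against 20.9, 1.86 and 8.55 in layers. The M groups did not overlap, and 1 P layer array reached the P neurons. CNTN1 was higher in neurons by 1.25 ± 0.25 in M (adjusted p = 0.00314) and by 0.95 ± 0.17 over both layer types (adjusted p = 0.000566). In P its difference was 0.64 ± 0.25 (adjusted p = 0.107). Its signals in all M layers and in P layers 2 and 3 lay under the medians of those arrays, so the size is uncertain. Over the alternative settings it ran from 0.563 to 2.195 in M and from 0.402 to 1.864 over both layer types.

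CNTN6, which also goes by NB-3, was 90.2, 77.8 and 112 in M neurons, against 37.7, 52.1 and 45.7 in M layers. In P it was 98.7, 51.8 and 61.3 in neurons, against 40.4, 38.7 and 26.9 in layers. Neuron and layer arrays did not overlap in either layer type. CNTN6 was called in M (0.83 ± 0.22, adjusted p = 0.0188), in P (0.73 ± 0.22, adjusted p = 0.0383) and over both (0.78 ± 0.15, adjusted p = 0.00102). All 5 contactins had differences above 0 over both layer types, between 0.20 and 0.95, and the lowest lay near the median of all named genes. Most genes lay above 0 there, 27 of the 36 members and 7112 of 10029 named genes.

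The type II cadherins divided. CDH18 was 223, 175 and 175 in M neurons, against 117, 119 and 147 in M layers, and 211, 203 and 200.2 in P neurons, against 102, 134 and 106 in P layers. Neurons lay above layers without overlap in both, and CDH18 was called in P (0.77 ± 0.18, adjusted p = 0.0111) and over both (0.65 ± 0.13, adjusted p = 0.00111). CDH12 was 178, 108 and 202 in M neurons, against 80.5, 78.4 and 96.4 in M layers, and 118, 108 and 248 in P neurons, against 104, 71.2 and 127 in P layers, with an overlap in P. CDH12 was called over both (0.65 ± 0.19, adjusted p = 0.0181), though not without M neuron 3 (0.57, adjusted p = 0.0526) or P neuron 3 (0.48, adjusted p = 0.0583). In M alone its 0.79 was called with the replicate number as a block (SE 0.21, adjusted p = 0.0102) and not without it (adjusted p = 0.0712).

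CDH10 went the other way. It was 80.4, 67.2 and 55.6 in M neurons, against 132, 179 and 161 in M layers, and 123, 107 and 69.8 in P neurons, against 138, 167 and 140.2 in P layers. Every neuron array lay under every layer array of its layer type. The difference was -1.05 ± 0.21 in M (adjusted p = 0.00328) and -0.79 ± 0.15 over both (adjusted p = 0.000641), and in P it was -0.53 ± 0.21 (adjusted p = 0.117).

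CDH13 showed the same direction, at 20.0, 17.6 and 18.8 in M neurons, against 58.2, 75.7 and 50.5 in M layers. In P it was 21.7, 34.0 and 19.6 in neurons, against 55.7, 42.8 and 34.3 in layers. The groups did not overlap in M or in P, by a narrow gap in P. CDH13 was lower in neurons by -1.14 ± 0.21 in M (adjusted p = 0.00175) and -0.85 ± 0.15 over both (adjusted p = 0.000325). Its second tested probe set differed by -0.40 ± 0.16 over both (adjusted p = 0.0689).

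Among protocadherins PCDH11X was 95.2, 91.4 and 57.4 in M neurons, against 48.1, 50.4 and 43.3 in M layers, and 67.2, 95.04 and 71.9 in P neurons, against 50.02, 35.9 and 51.7 in P layers. It was higher in neurons over both (0.60 ± 0.15, adjusted p = 0.00506), with no overlap, but its second tested probe set had -0.33 ± 0.17 (adjusted p = 0.177) and the mean over both probe sets 0.14 (adjusted p = 0.465). PCDHA11 was 529, 416 and 616 in M neurons, against 339.8, 348 and 372 in M layers, and 374, 382 and 511 in P neurons, against 226, 348 and 259 in P layers, with no overlap in either. It was higher over both by 0.55 ± 0.14 (adjusted p = 0.00648). In P alone its 0.58 was called with the replicate number as a block (SE 0.19, adjusted p = 0.0426) and not without it (adjusted p = 0.0656). PCDH18 was lower over both by -0.53 ± 0.18 (adjusted p = 0.0364), and that call ended on leaving out M neuron 1 or 2, P neuron 1 or 3, M layer 1 or 2, or P layer 2 or 3, each alone, with adjusted p between 0.0523 and 0.11.

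A block for the replicate number raised the calls over both layer types from 6354 to 7266 of all probe sets tested. Among the members it added 4 to those called there. They were PCDH10 (0.44 ± 0.14, adjusted p = 0.0201), PCDHAC1 (0.39 ± 0.11, adjusted p = 0.00971), the contactin CNTN4 (0.55 ± 0.20, adjusted p = 0.0391) and, lower in neurons, the delta-2 protocadherin PCDH8 (-0.49 ± 0.16, adjusted p = 0.027). Without the block their adjusted p lay between 0.0616 and 0.0997. PCDHAC1 was 1746, 1052 and 1334 in M neurons, against 1191, 823 and 1072 in M layers, and overlapped. PCDH8 was 19.0, 15.6 and 21.0 in M neurons, against 29.7, 15.9 and 49.2 in M layers, and overlapped too.

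PCDH20 was lower in M neurons than in M layers by -0.99 ± 0.25 (adjusted p = 0.0148), and had 0.41 ± 0.25 in P (adjusted p = 0.333). The M call was lost without M layer 1 (-0.89, adjusted p = 0.0706) and with a pseudocount of 64 (-0.43, adjusted p = 0.135). CNTNAP4 was not called, with 0.18 ± 0.20 in M, 0.33 ± 0.20 in P and 0.25 ± 0.14 over both (adjusted p = 0.208), and its sign over both turned to -0.02 with quantile normalization and to -0.00343 with arrays scaled to a common trimmed mean.

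**Figure D3:**
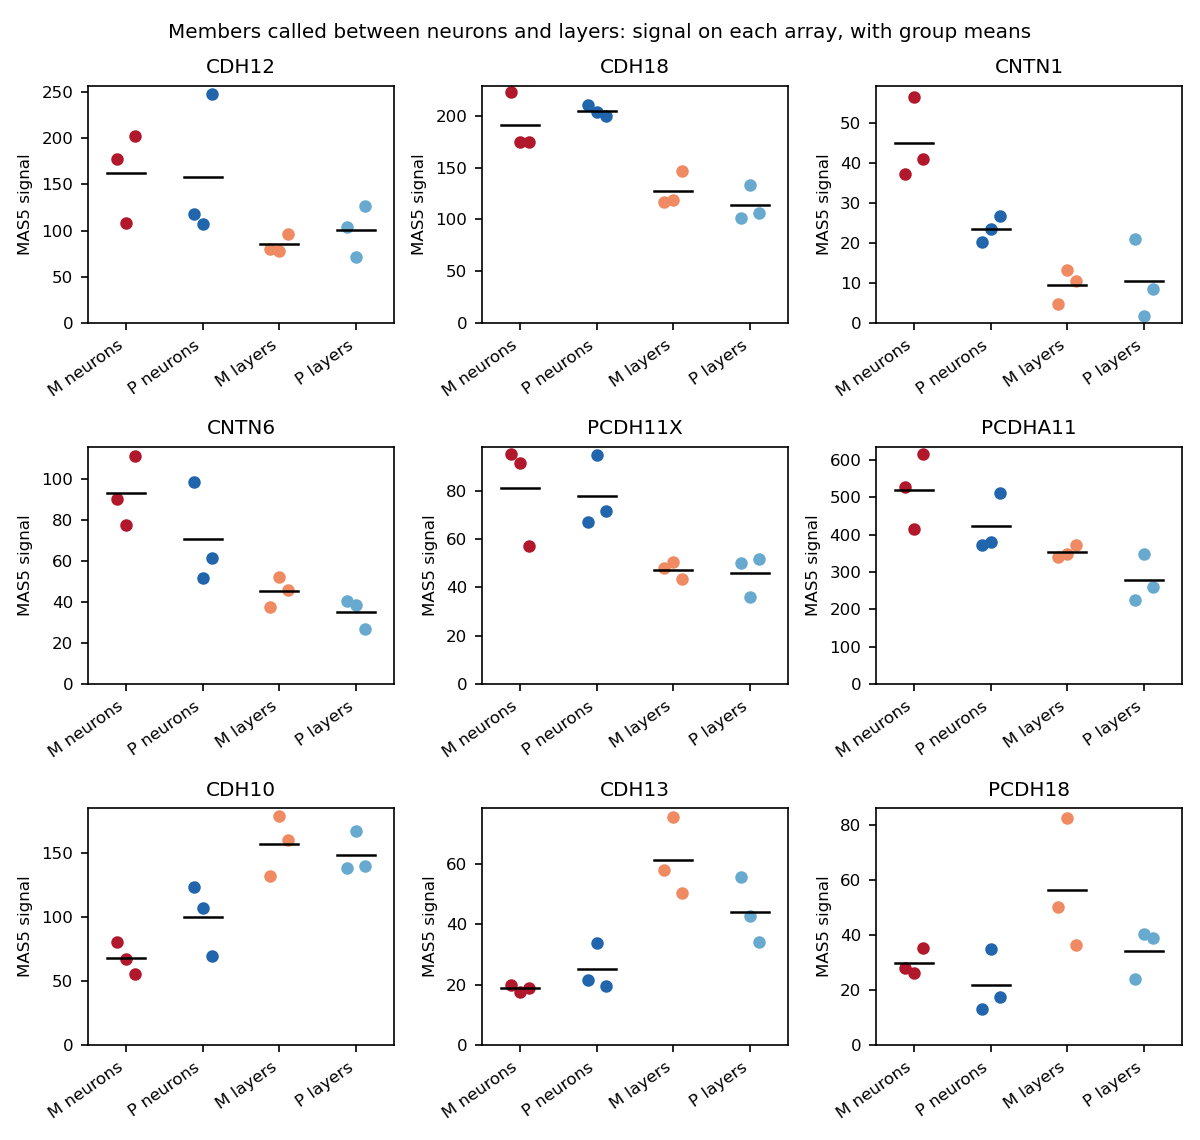
Signal on each array (points, linear axis from 0) and arithmetic group mean (bars) for the 9 members called between neurons and whole layers over both layer types. The first 6 panels are higher in neurons and the last 3, CDH10, CDH13 and PCDH18, are lower.

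Taken by layer type, 5 of 36 members were called in M, with CNTN1 and CNTN6 higher and CDH10, CDH13 and PCDH20 lower, where 13.1% of named genes were called, 9.7% higher and 3.38% lower. In P 2 of 36 were called, CDH18 and CNTN6, both higher, and 0 lower, where 12.8% of named genes were called, 11% higher and 1.73% lower. Before adjustment 10 members in M and 9 in P had a p under 0.05, where 28.8% and 29.3% of named genes did. Taken in either direction these shares are near or under the background, with 13.9% of members called in M and 5.56% in P. The 3 members called lower in M were a larger share than among named genes. On every array 7 members were higher and 4 lower in M neurons than in M layers, where 22.2% and 7.15% of named genes were, and 6 were higher and 2 lower in P neurons than in P layers, where 29.7% and 6.22% were. Leaving out 1 array moved the count of calls to between 3 and 7 in M, with 3 without M layer 1, and to between 0 and 4 in P, with 0 without P layer 3, 1 without P neuron 1, P neuron 3 or P layer 1, and 4 without P layer 2. CNTN6 lost its call in M without M neuron 3 (0.71, adjusted p = 0.094) or M layer 1 (0.74, adjusted p = 0.0858), and in P without P neuron 1, P neuron 3 or any P layer (adjusted p up to 0.188). CDH18 lost its call in P without P layer 1 (0.71, adjusted p = 0.0679) or P layer 3 (0.73, adjusted p = 0.0606). For the difference between the neuron and the layer contrast of M and P, limma called 0 members and 0% of named genes. PCDH20 was the 1 member with an unadjusted p under 0.05 there, where 2.24% of named genes had one.

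**Figure D4:**
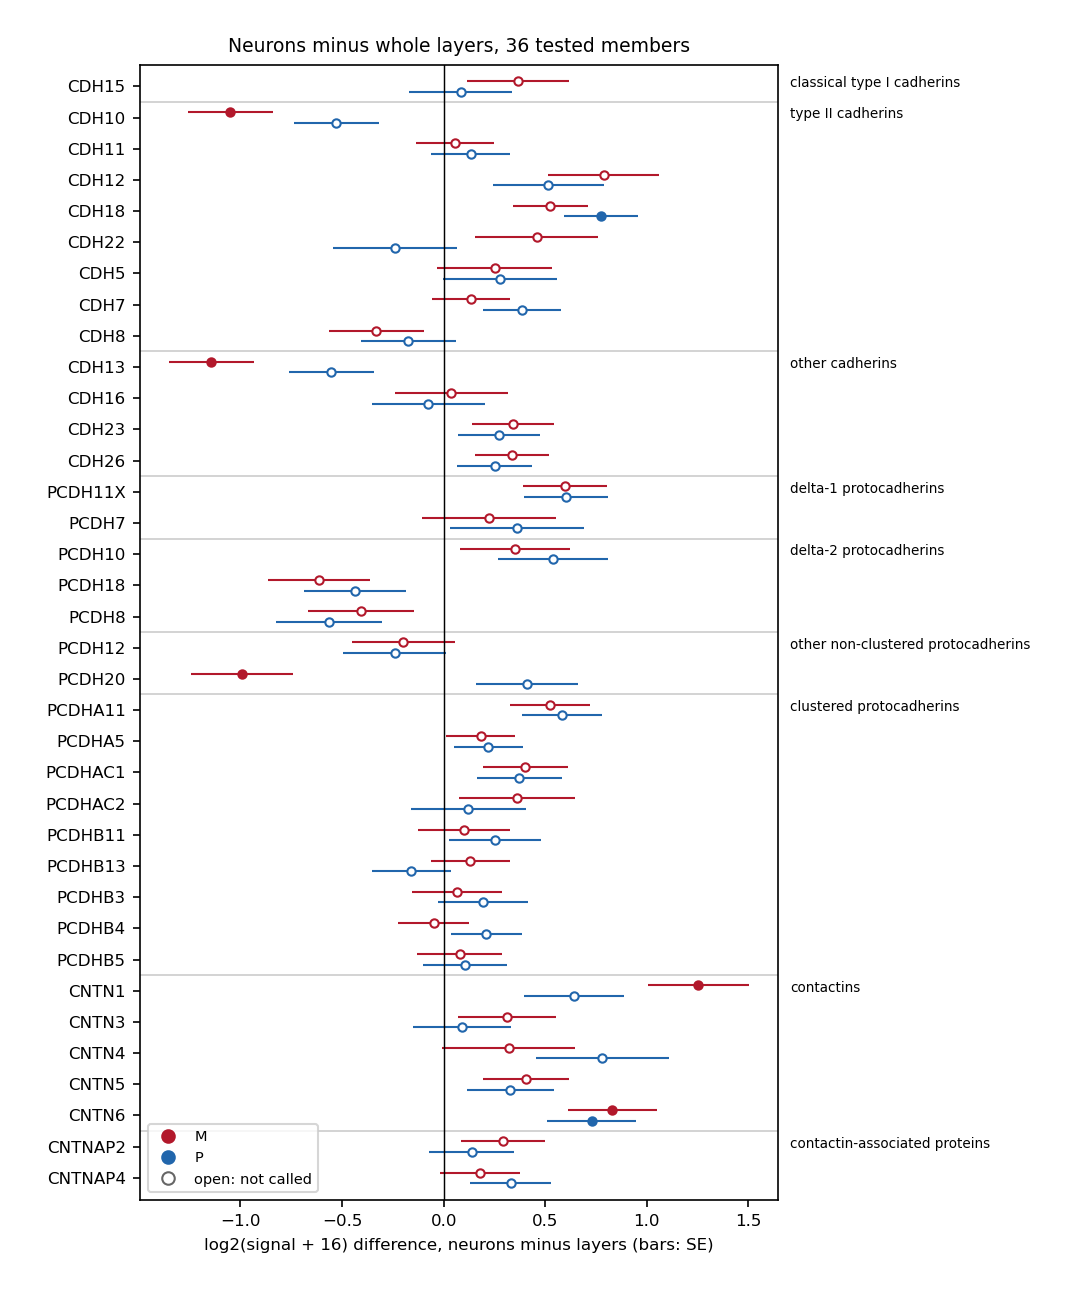
Difference neurons minus whole layers on the log2(signal + 16) scale with SE for the 36 tested members by subfamily, in M (red) and P (blue); filled points are called. CNTN1 in M stands highest at 1.25 and CDH13 in M lowest at -1.14, and PCDH20 lies at -0.99 in M and 0.41 in P.

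The calls depended on the scale of the arrays. With quantile normalization 3 members stayed higher over both layer types, CDH18, CNTN1 and CNTN6, and 3 lower, CDH10, CDH13 and PCDH18. Of all named genes 24.4% were called there, and 51.5% of the called ones were higher, against 82.3% unscaled. CDH12 (adjusted p = 0.129), PCDH11X (0.0516) and PCDHA11 (0.0613) were not called there. With arrays scaled to a common trimmed mean 4 were higher and 4 lower, where 25.5% of named genes were called and 48% of the called ones were higher. In M the same 5 members were called under both scalings, where 13.8% of named genes were called with quantile normalization and 13.9% with the trimmed mean. The share of higher calls in M was 47.4% and 46.2%, against 74.2% unscaled. In P quantile normalization left 0 members higher and called CDH10 and CDH13 lower, where 9.95% of named genes were called. The trimmed mean called these lower and CDH18 higher, where 10.9% of named genes were called. The share of higher calls in P was 48.7% and 46.9%, against 86.4% unscaled. The station and the capture were nearly confounded, since no station held neurons and layers of the same layer type. With the station as a block 616 of all 26383 probe sets tested were called over both layer types, against 6354 without it. Of the 36 members 0 were called with the block, so calls fell over the whole array and not only for the members. The 9 members called without it kept their direction, with adjusted p from 0.0969 to 0.588 and standard errors 2.06 to 2.4 times as large. The differences moved too, to between 0.457 and 1.68 times their size, with CNTN6 at 0.36 ± 0.33 and CDH12 at 1.10 ± 0.43. In M alone CNTN6 was 0.18 ± 0.39 with that block (adjusted p = 0.873).

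Cell markers moved with this comparison too. Over both layer types 3 of 4 astrocyte markers and 3 of 4 endothelial markers tested were lower in neurons and 2 of 4 neuron markers higher. Of the 2 oligodendrocyte markers tested UGT8 was lower, and 0 of 5 microglial markers were called. The sums of MBP and UGT8 lay between 4661 and 6921 in M neurons, against 6677 and 6983 in M layers, and between 5525 and 6480 in P neurons, against 7029 and 7921 in P layers. Endothelial sums ran from 142 to 202 in M neurons, against 217 to 385 in M layers, and from 176 to 217 in P neurons, against 278 to 311 in P layers, and no marker was at 0. The endothelial members CDH5, the cadherin of vessel junctions, and PCDH12 were not called (0.26 ± 0.20, adjusted p = 0.377, and -0.22 ± 0.18, adjusted p = 0.416). The part of these cells in the calls of CDH10, CDH13 and PCDH18 was not tested.

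Probe sets of a gene did not always give the same answer. Of the members, 10 had more than 1 tested probe set, and CNTNAP2 was the widest case. Its brightest differed by 0.22 ± 0.15 between neurons and layers over both layer types (adjusted p = 0.322). MmugDNA.40181.1.S1_at and MmugDNA.40181.1.S1_s_at, which share a cluster name, were higher in neurons (0.81 ± 0.15, adjusted p = 0.000794, and 0.93 ± 0.15, adjusted p = 0.000181), while MmuAffx.21.1.A1_at was lower (-0.66 ± 0.16, adjusted p = 0.00465). The first of these read 134, 93.0 and 125 in M neurons, against 54.2, 46.7 and 71.5 in M layers, with no overlap. The last read 22.6, 14.3 and 25.2 in M neurons, against 49.1, 54.8 and 44.8 in M layers, again with no overlap but the other way round. No direction can therefore be given for CNTNAP2 as a gene.

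CDH11 and PCDHA5 were further cases. The brightest probe set of CDH11 differed by 0.09 ± 0.14 over both layer types, while MmugDNA.5533.1.S1_at was lower in neurons (-0.63 ± 0.14, adjusted p = 0.00249). It read 46.0, 47.8 and 58.3 in M neurons, against 118, 109 and 110.1 in M layers, and overlapped between P neurons and P layers. For PCDHA5 the brightest had 0.20 ± 0.12 (adjusted p = 0.25) and another of its 4 tested probe sets was higher (0.64 ± 0.17, adjusted p = 0.0106).

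**Figure D5:**
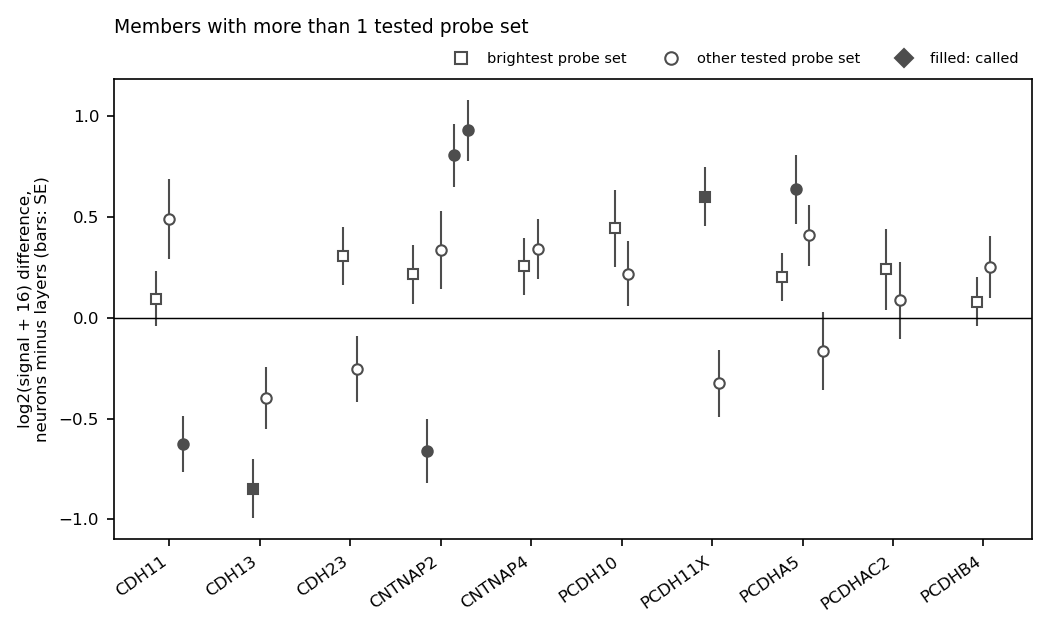
Difference neurons minus layers over both layer types with SE for each tested probe set of the 10 members that had more than 1; squares are the brightest probe set, circles the others, and filled symbols are called. Probe sets of CNTNAP2 are called in both directions, from -0.66 to 0.93, and those of CDH11, CDH23, PCDH11X and PCDHA5 lie on both sides of 0.

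Partners of these families were taken from 4 lists, with 29 genes tested. Between M and P neurons 0 were called and between the layers 0, and over both captures 1 was lower in M, DSG2, a desmosomal cadherin (-0.82 ± 0.19, adjusted p = 0.0449). DSG2 read 33.9, 54.0 and 37.8 in M neurons, against 53.5, 116 and 122 in P neurons, with a slight overlap, and 15.3, 38.3 and 26.4 in M layers, against 38.5, 53.2 and 69.4 in P layers, with none. The smallest p of the catenins in neurons was that of CTNNA2, the alpha catenin of neurons (-0.38 ± 0.21, adjusted p = 0.737). KCNA2, a Kv1 potassium channel subunit that gathers beside the paranode with CNTNAP2, was higher on every M array in both captures, by 0.34 ± 0.11 in neurons (adjusted p = 0.399) and 0.32 ± 0.11 in layers (adjusted p = 0.606), and was not called. Over both captures KCNA2 and LGI1 were called higher in M under both scalings and LGI1 with the replicate block, which also called DSG2 in neurons, while 0 partners were called with the station block.

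Between neurons and layers over both layer types 9 of 29 partners were higher and 3 lower, where 24.2% of named genes were higher and 5.21% lower. Under quantile normalization 6 were higher and 6 lower, where 24.4% of named genes were called and 51.5% of the called ones were higher. Under the trimmed mean 6 were higher and 7 lower, where 25.5% of named genes were called and 48% of the called ones were higher. With the station block 1, KCNA1, was higher and 0 lower. With the replicate block ANK2 was higher as well. Of the 10 tested genes of the node, paranode and juxtaparanode 6 were higher in neurons and 0 lower. Under either scaling 4 were higher, without L1CAM and LGI1, and 1, ANK3, was lower. The 6 included the channel subunits KCNA1 (1.04 ± 0.16, adjusted p = 0.000103) and KCNA2 (0.48 ± 0.08). EPB41L3, which ties Caspr proteins to the cytoskeleton, was another (0.76 ± 0.12). The rest were ADAM22 and its ligand LGI1 (0.67 ± 0.16 and 0.46 ± 0.16), and the adhesion molecule L1CAM (0.53 ± 0.12). KCNA1 read 1790.2, 1184 and 1856 in M neurons, against 809.8, 598 and 1104 in M layers, with no overlap. In P it read 1144, 994 and 1709.6 in neurons, against 591, 526 and 559 in layers, again with none. Of the 7 tested catenins CTNNA2 was higher (0.67 ± 0.15) and CTNNA1, the alpha catenin found in most tissues (-0.60 ± 0.13), CTNND2 (-0.39 ± 0.11) and JUP (-0.41 ± 0.14) were lower. CLSTN1, a calsyntenin, was higher (0.58 ± 0.10), as was DSG2 (0.56 ± 0.19).

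The patterns of PCDH20 and CNTNAP4 over the 12 rhesus arrays were compared with those of 9345 named genes. Nearest to PCDH20 by Pearson's r of log2 signals stood YBX3 (0.906), CDKN2A (0.858), SERTAD4 (0.855), RYBP (0.85) and CARTPT (0.847), and nearest to CNTNAP4 stood REC8 (0.951), TRIM58 (0.951), MYB (0.943), FIG4 (0.937) and STIMATE (0.936). PCDH20 and CNTNAP4 correlated with each other at 0.792. These values are a description over arrays that fall into groups with different levels. YBX3, for one, read 56.3, 66.2 and 76.4 in M neurons, against 137, 148 and 183 in P neurons, and REC8 read 15.2, 36.1 and 22.5 in M neurons, against 117, 166 and 94.8 in P neurons.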

How the data were processed

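Deposited intensity values are linear signals, 1 for each probe set and array, that the authors computed with MAS5, per the submitters' processing notes, with the version and scaling target not given in the sources used here. Low MAS5 signals carry large relative errors, and no common scaling held over the arrays. Genes were named from probe sets with 1 symbol in the platform annotation, which can be old. Of 52766 probe sets outside 99 controls, 24956 had 1 symbol, 361 several and 27449 none, and 3 matching probe sets with several symbols were left out.

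Computed here were log2(signal + 16) values, tested with limma 3.58.1 in R 4.3.3 (4 group means, 12 arrays, variance trend, 8 residual and 11.66 prior degrees of freedom, two-sided) on probe sets whose mean reached the median, at a mean signal of 12.14 or more. Precision is limited by having 3 arrays a group. The script was tested on simulated data. The members, lists and rule for named genes were chosen with earlier results of these data known. Named were PCDH20, CNTNAP4, every called member or partner, the smallest p and the brightest probe set of each subfamily, members with a called other probe set, and the 5 genes of nearest pattern. CDH11 and PCDHB8 were named for their overlap or range after their values were seen.

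Groups came from the sample titles, and 2 vervet samples on human arrays were used only for values. Titles number the samples 1 to 3 in each group. Deviations of same-numbered arrays from the group means correlated at 0.101 to 0.262 in the compared pairs of groups, and at 0.0453 at the lowest over all 6 pairs. Differently numbered arrays were not compared in this way, and the labels state no pairing, so whether the numbers pair the samples is not settled. The main model used no pairing, and the replicate block was an alternative that treats same-numbered arrays as paired. The scalings and blocks for partner genes were added after seeing the data. Alternatives for the members were the pseudocount, the filter, the scaling, replicate and station blocks, the variance trend, the probe set rule, the arrays fitted and leaving out each array. Partner and marker lists held catenins, other cadherin superfamily genes, node and paranode partners, contactin receptors, and markers of neurons, astrocytes, oligodendrocytes, microglia, endothelium and interneurons. Sequences and coordinates were not used here.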

Additional observations from a re-analysis of the deposited data

How the results depend on the processing

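PCDH20 was called lower in M neurons under all 25 alternatives, between -4.11 and -1.72, and CNTNAP4 under 21 of 25, between -1.36 and -0.69. Over both captures both were called under all 23. The pair was chosen for this difference and the alternatives refit the same arrays, so these counts are a description. Leaving out a layer array does not move the neuron difference. Over 44 pairs of a named member and a comparison, 955 of 1043 alternative values kept direction and side of the threshold, 66 lost the call, 3 gained it and 19 turned direction. Many of these pairs were not called in the main setting, and staying uncalled counts as kept. Leaving out an array outside a comparison does not move its difference, so the tally is no measure of stability. The count of members called between M and P neurons was 1 with the station block, within station 3 and with the mean over probe sets, and 1 to 2 when leaving out 1 array (1 without P neuron 2). Between layers it was 0 with no signal filter or with the station block, 1 with no variance trend, with the mean over probe sets or with only the groups compared, and 0 to 2 leaving out 1 array (0 without M layer 3 or P layer 3). Between neurons and layers the station block gave 0 calls of members for M, for P and for both together. Over all probe sets it gave 33, 115 and 616 calls, against 2805, 2686 and 6354 without it. In P the count of members was 1 with no signal filter and 4 with a stricter one. Leaving out 1 array gave 3 to 7 in M, 0 to 4 in P and 8 to 11 over both. With the replicate number as a block, which treats same-numbered arrays as paired, PCDH20 was -2.92 (adjusted p = 2.34e-09) and CNTNAP4 -1.20 (adjusted p = 0.000145) in neurons. The counts of members were 2, 2 and 2 between M and P. Between neurons and layers the counts were 6 for M, 3 for P and 13 over both layer types. Over all probe sets the block gave 3688, 3578 and 7266 calls there, against 2805, 2686 and 6354 without it. Calls gained were CDH12 in M, PCDHA11 in P, and PCDH10, PCDHAC1, CNTN4 and PCDH8 over both, and the block ended none. No value that turned direction was called. CDH15 between layers was -0.0262 with a pseudocount of 1 and -0.0862 to 0.32 leaving out 1 array. PCDH11X between neurons was -0.12 with the mean over probe sets and -0.0717 to 0.23 leaving out 1 array. CNTNAP4 between neurons and layers in M was -0.0644 with quantile normalization, -0.0370 with trimmed mean scaling, -0.25 with the station block and -0.00696 to 0.40 leaving out 1 array. Over both layer types it was -0.0210, -0.00343 and -0.28 under the first 3 of these, and in P -0.31 with the station block. Its interaction was 0.0580 with the station block and -0.34 to 0.0734 leaving out 1 array. Gained calls were PCDH20 between neurons and layers over both (-0.67 with a pseudocount of 1, -0.46 without P neuron 3) and CDH22 between layers within station 5 (-1.49). The causes of these changes were not tested. The size of a difference in dim genes moves with the pseudocount.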

Other observations

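Vervet RNA was also hybridized to 2 human arrays, whose values for family genes have no place in the comparisons. Their labels disagree, since the titles name magnocellular layers and the source names give magnocellular neuronal cell bodies, so they were put in no group. On them 147 probe sets carried 1 symbol that matched the same rule, for 82 symbols, of which 45 were also on the rhesus array. The median signals of the arrays were 11.3 and 9.78. PCDH9, a delta-1 protocadherin, read 3181 and 2933 on its brightest probe set, and CDH2, the neuronal N-cadherin, read 785 and 691 on its own. CNTN1 read 1503 and 819 likewise. CNTNAP1, dim on the rhesus arrays, read 172 and 93.9 on its probe set here. The 4 probe sets of CNTNAP4 read 0.214 and 0.251, 17.1 and 2.77, 40.4 and 41.3, and 144 and 143, so a dim and a bright probe set of the same gene occurred on this array too.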
